A study of Homo sapiens with 24 samples.

Results

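The S100 genes encode small calcium-binding proteins, and 10 of them were followed by gene symbol in RNA-seq libraries of ccRCC cells: S100A2, S100A3, S100A4, S100A6, S100A10, S100A11, S100A13, S100A14, S100A16 and S100P. They are 10 of the 26475 genes in the deposited tables, and 8 of the 10 passed the filter on low counts that left 15665 genes to test. Each S100 protein carries a pair of EF-hand motifs, and calcium binding exposes a surface that grips partner proteins such as annexins, myosin and ezrin. Through these partners S100 proteins act on the cytoskeleton, the cell membrane and secretion, and several are also released from cells and act on receptors outside. Most S100 genes lie in a cluster on the long arm of chromosome 1, and S100A4 in particular is known for its association with metastasis.

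The libraries came from 786-M1A and OS-LM1 cells, both metastatic derivatives of ccRCC lines with VHL mutations, cultured in RPMI with serum. In each line 4 libraries carried shPAX8-1, 4 carried shPAX8-2 and 4 carried sgNTC18, which gives 24 in all. Both shPAX8 constructs are RNAi constructs against PAX8, a transcription factor of the renal lineage. By contrast, sgNTC18 is a non-targeting guide RNA. No libraries with an RNAi control were analysed here. An effect of the kind of construct, or of any difference between experiments, therefore cannot be told apart from that of PAX8 depletion in a comparison with sgNTC18. The labels do not say that replicates were separate cultures, so p-values measure only the spread between these libraries, which may be technical.

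Library totals were between 11634419 and 52059375 expected counts, with a median of 20511915. PAX8 itself was between 292 and 393 CPM (counts scaled by the TMM library size) with sgNTC18 in 786-M1A cells, and between 14.8 and 45.5 CPM with shPAX8. In OS-LM1 cells PAX8 was between 245 and 279 CPM with sgNTC18 and between 59.8 and 97.0 CPM with shPAX8. Of 9 renal and ccRCC markers, 6 to 9 were over 10 CPM in each group, but CA9, a hypoxia target used to mark ccRCC, was at or near 0 in all 786-M1A groups. NDUFA4L2, another such marker, stayed under 1 CPM in all 786-M1A groups and in OS-LM1 cells with sgNTC18. The summed level of 9 leukocyte, endothelial and fibroblast markers was at most 2.23 CPM with sgNTC18 and between 3.85 and 10.2 CPM with shPAX8, led by LUM and CD14, while CD3E was at 0 throughout. The share of counts on RNA18S5, a ribosomal RNA, was between 4.52% and 8.16% with sgNTC18 and between 1.18% and 6.53% with shPAX8. The 786-M1A libraries 1 and 2 with shPAX8-1 stood apart from libraries 3 and 4 (distance across over distance within, 1.41, against 1.04 to 1.15 in the other groups). The part of these differences in the results was not tested.

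The guide strands of both constructs are shown because they define the depleted groups, with bases 2 to 8, the seed, in capitals. The complement of shPAX8-1 was found in 10 of 14 annotated PAX8 transcripts and that of shPAX8-2 in 7 of 14.
shPAX8-1: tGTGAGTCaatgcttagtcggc
shPAX8-2: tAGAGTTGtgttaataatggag

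The 250 bases upstream of the annotated start are shown for 4 S100 genes that differed in how they changed below. They were taken from the RefSeq promoter windows of GRCh38.p14, where all 10 genes were matched, with 14 windows in all. All 4 genes shown lie on the minus strand. Both strands were searched for TATAAA (the TATA box), ACGTG (the core of the HIF response element) and TGANTCA (an AP-1 site), and matches are in capitals.
S100A4 (chr1:153545807-153546056): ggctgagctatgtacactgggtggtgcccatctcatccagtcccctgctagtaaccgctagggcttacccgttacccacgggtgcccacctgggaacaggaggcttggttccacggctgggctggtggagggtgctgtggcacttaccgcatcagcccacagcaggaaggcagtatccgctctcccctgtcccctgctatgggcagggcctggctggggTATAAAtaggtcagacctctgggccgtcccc
S100A6 (chr1:153535992-153536241): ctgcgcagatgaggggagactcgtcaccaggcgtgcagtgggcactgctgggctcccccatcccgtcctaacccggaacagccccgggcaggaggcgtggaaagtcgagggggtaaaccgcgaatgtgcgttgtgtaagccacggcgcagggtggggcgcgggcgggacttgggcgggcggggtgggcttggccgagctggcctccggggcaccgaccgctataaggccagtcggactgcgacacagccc
S100A10 (chr1:151993860-151994109): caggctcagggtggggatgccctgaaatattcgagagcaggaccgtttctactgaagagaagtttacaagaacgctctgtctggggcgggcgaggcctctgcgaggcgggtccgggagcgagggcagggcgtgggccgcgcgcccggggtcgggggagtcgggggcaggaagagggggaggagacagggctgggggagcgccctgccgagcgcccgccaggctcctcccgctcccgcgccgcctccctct
S100A2 (chr1:153565845-153566094): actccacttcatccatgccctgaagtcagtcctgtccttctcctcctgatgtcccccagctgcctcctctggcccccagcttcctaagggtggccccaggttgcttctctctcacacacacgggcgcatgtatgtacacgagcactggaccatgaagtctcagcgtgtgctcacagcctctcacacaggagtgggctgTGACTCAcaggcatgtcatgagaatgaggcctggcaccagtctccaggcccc
The S100A4 window held a TATAAA match 31 bases upstream of the start, as did windows of S100P at 28 bases and S100A13 at 29 bases. The S100A2 window shown held a TGANTCA match at 52 bases and the S100A3 window one at 225 bases. The other S100A2 window held no match. A window of S100A16 held ACGTG at 118 bases, and the windows shown for S100A6 and S100A10 held none of these letters. Among 35116 windows of the same length, 10.7% held TATAAA, 18.5% held ACGTG and 6.6% held TGANTCA. These matches describe the letters and do not mark a bound site.

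On a scale per transcript length (TPM), S100A6, S100A11, S100A10 and S100A16 made up at least 92.3% of the summed level of the 10 genes in every library. S100A6 (calcyclin, chr1:153534599-153535991) was at 3892 ± 122 TPM (SD, n = 4) in 786-M1A cells with sgNTC18, the 25th highest mean of all genes listed. S100A11 (calgizzarin, a partner of annexin A1, chr1:152032506-152037004) followed at 3454 ± 192 TPM, at rank 28. S100A10 (chr1:151982915-151993859), which has lost calcium binding and pairs with annexin A2, came next at 1285 ± 86.2 TPM. S100A16 (chr1:153606883-153613137), found in many tissues, was at 539 ± 21.4 TPM. S100A13 (chr1:153618799-153634361), a protein of non-classical secretion, was at 328 ± 21.3 TPM.

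The order at the top changed with the group. With shPAX8, S100A11 led in 786-M1A cells, at 1988 ± 166 TPM (shPAX8-1) and 1972 ± 122 TPM (shPAX8-2). In OS-LM1 cells S100A11 led with sgNTC18 (3192 ± 159 TPM) and with shPAX8-2 (2729 ± 395 TPM), whereas S100A10 led with shPAX8-1 (3129 ± 226 TPM). The last 2 leads were no larger than the spread: S100A10 was at 2390 ± 476 TPM with shPAX8-2, and S100A11 at 2657 ± 661 TPM with shPAX8-1. The summed level of the 10 genes was 9557 ± 345 TPM in 786-M1A cells with sgNTC18, 5051 ± 328 TPM with shPAX8-1 and 5355 ± 490 TPM with shPAX8-2. In OS-LM1 cells the sum was 8434 ± 521, 8605 ± 732 and 7040 ± 876 TPM in the same order.

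**Figure D1:**
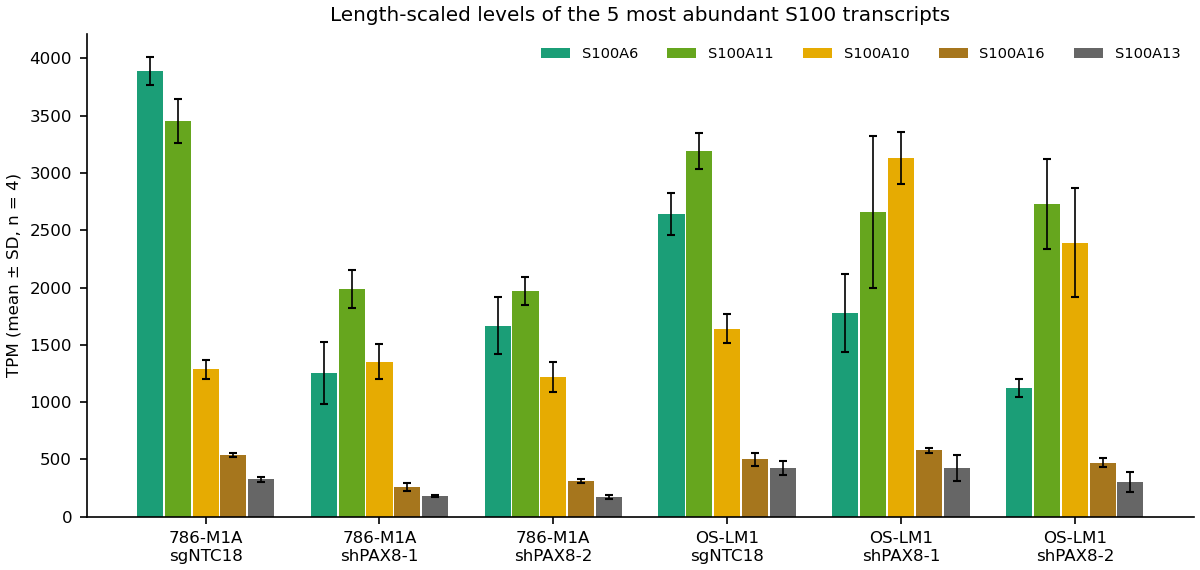
Mean TPM of the 5 most abundant S100 transcripts (bars, SD as error bars, n = 4 libraries) in the 6 groups. S100A6 stood at 3892 TPM in 786-M1A cells with sgNTC18 and at 1253 and 1669 TPM with the shPAX8 constructs, while S100A10 was highest in OS-LM1 cells with shPAX8.

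The lower-expressed members were S100A2 (linked to squamous epithelia, chr1:153561108-153565844), S100A3 (a zinc-binding protein of the hair cuticle, chr1:153547329-153549258) and S100A4 (metastasin, a partner of the myosin heavy chain MYH9, chr1:153543621-153545806). In 786-M1A cells with sgNTC18 they were at 18.5 ± 2.41, 2.35 ± 0.758 and 38.2 ± 4.16 TPM. S100A14 (chr1:153614255-153616325), an epithelial S100, had 16 counts over all 24 libraries and at most 0.200 CPM. S100P (chr4:6693878-6697170), a partner of ezrin, had 30 counts and at most 0.200 CPM, so neither was tested. Of 10 further S100 genes, S100A1 alone was tested, and S100A8, S100A9 and S100A12, which are abundant in neutrophils, had 0 counts in every library. At these depths 0 counts allow a level of up to 0.0576 CPM in the deepest and 0.258 CPM in the shallowest library, as far as counting error goes.

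In 786-M1A cells, 7 of the 8 tested S100 genes were lower with shPAX8 than with sgNTC18 and none was higher. The largest falls were those of S100A3, S100A4, S100A2 and S100A6, and S100A10 was the exception. Over all genes 34.5% were called higher and 34.9% lower in this comparison, and the median log2 fold change was -1.06 over the 8 genes and 0.015 over all genes. These medians are without a correction for GC content, which fold changes followed over genes (Spearman's rho -0.226). The 7 lower genes had 53.1% to 60.2% GC, S100A10 had 47.5%, and the median of tested genes with a known value was 47.9%. With the GC trend removed 7 S100 genes were called, beside 11469 of all genes. Calls here and below are at an adjusted p under 0.05 in edgeR's quasi-likelihood test of the mean of both constructs. Overlap of libraries between groups was looked at for listed genes only, and the share of all genes without overlap was not computed. In such bulk libraries a smaller number of cells with a transcript cannot be told apart from less of it per cell.

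**Figure D2:**
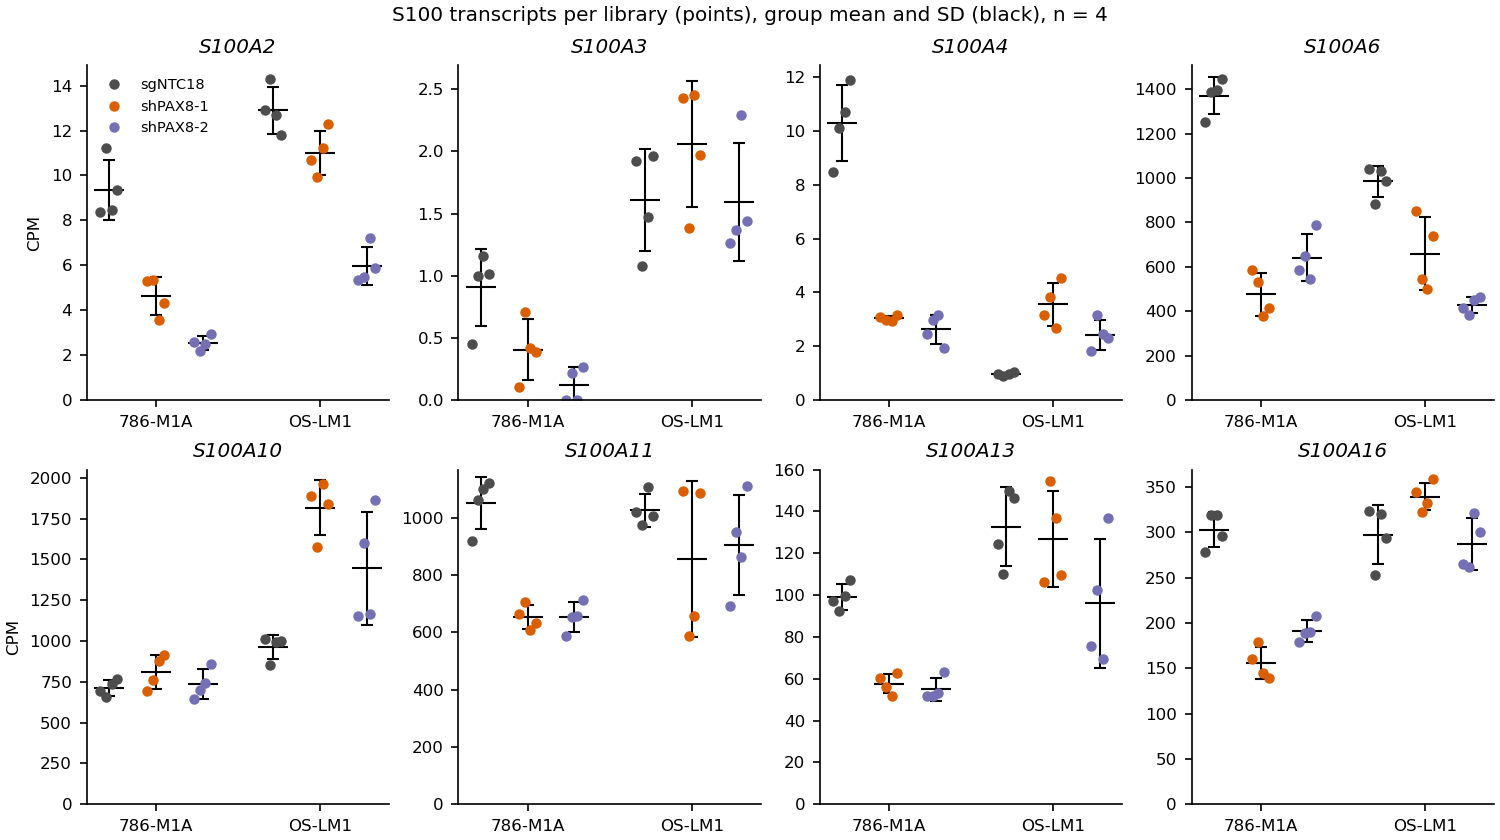
CPM of the 8 tested S100 genes in each library (points), with the group mean and SD in black (n = 4); each panel has its own linear axis from 0. In 786-M1A cells the sgNTC18 points lie above all shPAX8 points for S100A2, S100A4, S100A6, S100A11, S100A13 and S100A16, and in OS-LM1 cells the sgNTC18 points of S100A4 and S100A10 lie below all shPAX8 points.

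S100A4 was at 8.46, 10.1, 10.7 and 11.9 CPM with sgNTC18 in 786-M1A cells. It was at 3.08, 2.97, 2.95 and 3.15 CPM with shPAX8-1 and at 2.45, 2.97, 3.15 and 1.93 CPM with shPAX8-2. No shPAX8 library reached the lowest sgNTC18 library, and the constructs overlapped each other. S100A4 was thus 3.64-fold lower (log2 fold change -1.86 ± 0.15 SE, edgeR adjusted p = 1e-11). S100A5 and LOC101928034 overlap S100A4 in the annotation, and whether counting used the strand is not given in the sources used here, so its reads could be shared.

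S100A6 had 1252, 1389, 1398 and 1445 CPM with sgNTC18. Its levels were 583, 532, 376 and 413 CPM with shPAX8-1 and 584, 649, 544 and 786 CPM with shPAX8-2. The groups did not overlap, although libraries 3 and 4 with shPAX8-1 lay below every other 786-M1A library. The gene was 2.48-fold lower (log2 fold change -1.31 ± 0.13 SE, edgeR adjusted p = 3.4e-10).

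S100A2 was between 8.38 and 11.2 CPM with sgNTC18, between 3.55 and 5.32 CPM with shPAX8-1 and between 2.16 and 2.93 CPM with shPAX8-2. All 3 groups were apart, and the fall was 2.72-fold (log2 fold change -1.44 ± 0.13 SE, edgeR adjusted p = 7.6e-11). S100A3, the scarcest of the tested members, had 0.452, 0.995, 1.16 and 1.01 CPM with sgNTC18. It had 0.105, 0.706, 0.421 and 0.387 CPM with shPAX8-1 and 0, 0.216, 0 and 0.267 CPM with shPAX8-2. These levels rested on 0 to 15 counts per shPAX8 library, and sgNTC18 and shPAX8-1 overlapped. The log2 fold change of S100A3 was -1.97 ± 0.46 SE (edgeR adjusted p = 2e-04). LOC101928034 overlaps S100A3 too and was counted, so these few reads could also be shared.

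The more abundant S100A11, S100A13 and S100A16 fell by less. S100A11 was between 920 and 1121 CPM with sgNTC18 and between 587 and 713 CPM with shPAX8, 1.61-fold lower. S100A13 went from between 92.3 and 107 CPM to between 51.7 and 63.3 CPM, 1.76-fold lower. S100A16 went from between 279 and 319 CPM to between 139 and 208 CPM, also 1.76-fold lower. The sgNTC18 and shPAX8 libraries of these 3 genes did not overlap, and the edgeR adjusted p was 3.8e-05, 5.1e-06 and 1.1e-09. S100A13 overlaps S100A1 and CHTOP in the annotation.

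S100A10 was at 695, 654, 734 and 767 CPM with sgNTC18 in 786-M1A cells. With shPAX8-1 it was at 691, 762, 877 and 917 CPM and with shPAX8-2 at 647, 699, 744 and 857 CPM. The groups overlapped, and the log2 fold change of 0.12 ± 0.11 SE was not called (edgeR adjusted p = 0.35). It was called with the trends of GC content and length removed (0.18, edgeR adjusted p = 0.044), an alternative chosen after seeing the data, and not with the GC trend alone removed (0.07, edgeR adjusted p = 0.53).

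With each construct alone, the same 7 genes were called lower in 786-M1A cells. They had log2 fold changes from -0.69 (S100A11) to -1.76 (S100A4) with shPAX8-1 and from -0.66 (S100A16) to -2.80 (S100A3) with shPAX8-2. Of the 15665 genes tested, 10883 were called with either sign with shPAX8-1 alone in 786-M1A cells and 9769 with shPAX8-2 alone. The share of all genes called lower with both constructs was not computed. PAX8 was 18.7 ± 4.31 CPM with shPAX8-1 and 42.4 ± 2.36 CPM with shPAX8-2 in these cells.

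In OS-LM1 cells the S100 genes moved both ways: S100A4 and S100A10 were higher with shPAX8, S100A2 and S100A6 were lower, and 4 were not called. Over all genes 34.2% were called higher and 35.1% lower. The median log2 fold change was -0.08 over the 8 genes and -0.013 over all genes. Fold changes followed GC content here too (Spearman's rho -0.306). With that trend removed 5 S100 genes were called, beside 11191 of all genes.

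S100A4 had 0.958, 0.908, 0.974 and 1.02 CPM in OS-LM1 cells with sgNTC18, a level that rested on 31 to 35 counts per library. It had 3.16, 3.81, 2.69 and 4.55 CPM with shPAX8-1 and 1.82, 3.16, 2.44 and 2.31 CPM with shPAX8-2. Every shPAX8 library was above every sgNTC18 library. The gene was 3.04-fold higher (log2 fold change 1.60 ± 0.17 SE, edgeR adjusted p = 7.1e-09), and it was called with each construct alone (1.87 and 1.33).

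S100A10 stood at 1011, 855, 991 and 997 CPM with sgNTC18. It rose to 1886, 1573, 1959.5 and 1841 CPM with shPAX8-1 and to 1153, 1601, 1167 and 1862 CPM with shPAX8-2. The groups did not overlap, and libraries 1 and 3 with shPAX8-2 were nearest to the sgNTC18 level. S100A10 was 1.68-fold higher (log2 fold change 0.75 ± 0.11 SE, edgeR adjusted p = 2.1e-06).

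S100A6 was at 1039, 885, 1031 and 988 CPM with sgNTC18. With shPAX8-1 it was at 852, 545, 500.3 and 737 CPM and with shPAX8-2 at 414, 384, 449.7 and 464 CPM. All shPAX8 libraries were lower than all sgNTC18 libraries, library 1 with shPAX8-1 by the least. The fall was 1.86-fold (log2 fold change -0.89 ± 0.13 SE, edgeR adjusted p = 3.9e-07).

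S100A2 was between 11.8 and 14.3 CPM with sgNTC18, between 9.95 and 12.3 CPM with shPAX8-1 and between 5.32 and 7.20 CPM with shPAX8-2. Only the shPAX8-2 libraries were apart from sgNTC18. The log2 fold change was -0.66 ± 0.12 SE over both constructs (edgeR adjusted p = 1.2e-05), -0.23 with shPAX8-1 alone (edgeR adjusted p = 0.14) and -1.10 with shPAX8-2 alone (edgeR adjusted p = 1.3e-07).

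S100A3, S100A11, S100A13 and S100A16 were not called in OS-LM1 cells, with log2 fold changes of 0.19 ± 0.31, -0.22 ± 0.13, -0.27 ± 0.13 and 0.07 ± 0.08 (SE). S100A11 varied widely with shPAX8-1, at 1094, 587, 656 and 1087 CPM, so that libraries 2 and 3 lay below all sgNTC18 libraries and libraries 1 and 4 within or near them. S100A13 was called lower with shPAX8-2 alone (log2 fold change -0.47 ± 0.16 SE, edgeR adjusted p = 0.011). The log2 fold change of S100A16 was 0.42 and called once each library's trend with GC content was removed (edgeR adjusted p = 1.6e-05).

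**Figure D3:**
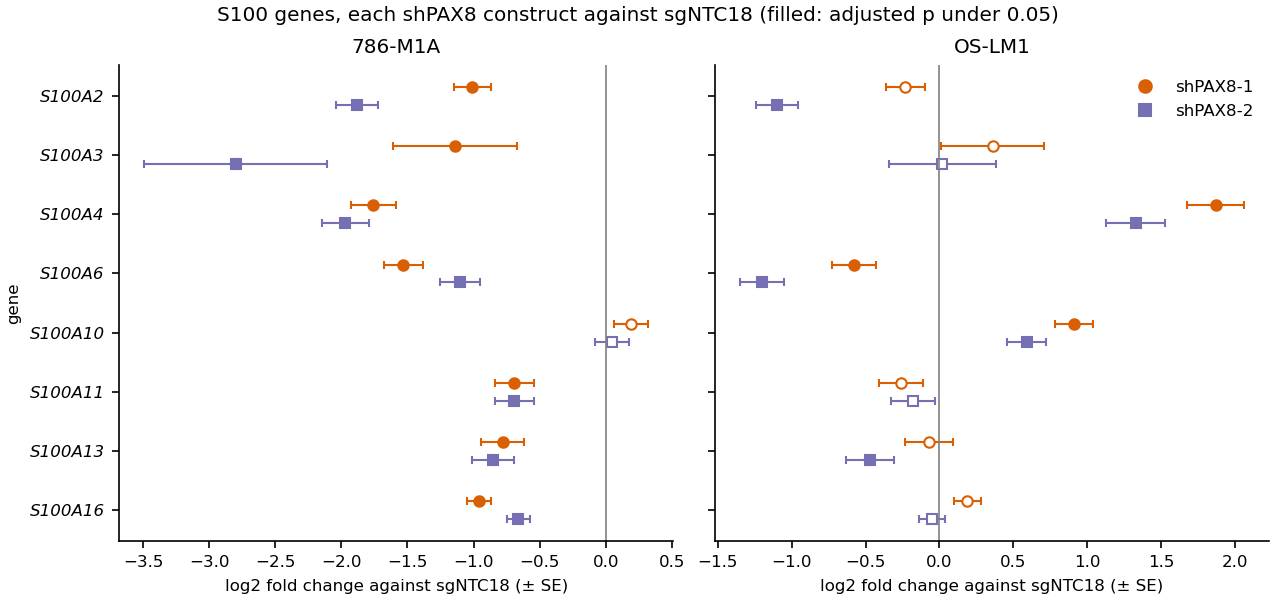
Log2 fold change of each tested S100 gene with shPAX8-1 or shPAX8-2 against sgNTC18 (points, SE as bars), by cell line; filled points are called by edgeR at an adjusted p under 0.05. In 786-M1A cells 7 genes lie left of 0 with both constructs, and in OS-LM1 cells S100A4 and S100A10 lie right of 0 with both.

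The test of the difference between the lines, OS-LM1 minus 786-M1A, asks whether the S100 genes changed unequally. All 8 tested genes were called, with a positive sign in each, against 58.7% of all genes called with either sign. The share of all genes called with a positive sign was not computed. The median difference was 0.71 over the 8 genes and 0.004 over all genes. The difference was largest for S100A4, at 3.47 ± 0.23 SE on the log2 scale (edgeR adjusted p = 1.2e-12), since it fell in 786-M1A and rose in OS-LM1 cells. It was 2.16 ± 0.55 for S100A3 (edgeR adjusted p = 0.0011), 0.88 ± 0.12 for S100A16 (3.8e-07), 0.78 ± 0.17 for S100A2 (0.00038) and 0.63 ± 0.16 for S100A10 (0.0012).

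The other 3 differences were smaller: 0.55 ± 0.19 SE for S100A13 (edgeR adjusted p = 0.016), 0.46 ± 0.19 for S100A11 (0.036) and 0.42 ± 0.18 for S100A6 (0.046). With shPAX8-2 alone all 3 calls ended, and that of S100A6 became -0.11 (edgeR adjusted p = 0.69). The call of S100A11 also ended with shPAX8-1 alone (0.43, edgeR adjusted p = 0.098), and that of S100A6 with DESeq2 (0.40, adjusted p = 0.066). With 1 library left out at a time, the call of S100A6 ended in 16 of 24 fits and that of S100A11 in 12 of 24, with lowest values of 0.33 and 0.39. A difference of construct or experiment that is equal in both lines cancels in this test, and one that is not equal does not. PAX8 itself fell less in OS-LM1 cells, by a difference of 1.87 ± 0.17 SE (edgeR adjusted p = 7.5e-10), so the lines were not compared at an equal depletion.

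The comparison of shPAX8-1 with shPAX8-2 needs no sgNTC18 library. In OS-LM1 cells, where PAX8 was at 78.2 ± 13.1 CPM with shPAX8-1 and 79.2 ± 13.7 CPM with shPAX8-2, S100A2, S100A4 and S100A6 were higher with shPAX8-1 and none was lower. Over all genes 11.4% were called higher and 11.7% lower. S100A2 differed by 0.87 ± 0.14 SE on the log2 scale (edgeR adjusted p = 4.2e-05) and S100A6 by 0.62 ± 0.15 SE (edgeR adjusted p = 0.0025), with no overlap between the constructs for either gene. S100A4 differed by 0.55 ± 0.18 SE (edgeR adjusted p = 0.030) and the constructs overlapped. That call ended when any of 5 single libraries was left out, with the lowest value 0.40 without library 4 with shPAX8-1.

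In 786-M1A cells S100A2 and S100A3 were higher with shPAX8-1 than with shPAX8-2, and S100A6 and S100A16 were lower. Here 24.9% of all genes were called higher and 23.2% lower. S100A2 differed by 0.87 ± 0.16 SE (edgeR adjusted p = 0.00011), the same value as in OS-LM1 cells, and S100A3 by 1.66 ± 0.73 SE (edgeR adjusted p = 0.041) on few counts. S100A6 differed by -0.43 ± 0.15 SE (edgeR adjusted p = 0.018) and S100A16 by -0.30 ± 0.10 SE (edgeR adjusted p = 0.012). Fold changes between the constructs in 786-M1A cells followed GC content over genes (Spearman's rho -0.53), and with that trend removed the values of S100A6 and S100A16 were 0.03 and 0.10 and were not called. Without the shPAX8-1 libraries 3 and 4 they were -0.19 and -0.17, also not called. Leaving out single libraries ended the calls of S100A6 (-0.31 without shPAX8-2 library 4, -0.33 and -0.36 without shPAX8-1 library 3 or 4), S100A16 (-0.25 without shPAX8-1 library 4) and, for 5 libraries, S100A3 (lowest 1.21, without shPAX8-1 library 2).

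The constructs differed unequally between the lines for 2 of the 8 genes, against 27.2% of all genes with either sign. The difference was 1.05 ± 0.21 SE for S100A6 (edgeR adjusted p = 0.0005), which was lower with shPAX8-1 in 786-M1A cells and higher with it in OS-LM1 cells, and 0.54 ± 0.13 SE for S100A16 (edgeR adjusted p = 0.0039). With the GC trend removed S100A16 had 0.21 and was not called. The lower level of S100A6 with shPAX8-1 in 786-M1A cells did not hold with that trend removed, as given above. Over genes, these differences of constructs between the lines followed GC content (Spearman's rho 0.397).

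Between the lines with sgNTC18, the S100 gene that differed most was S100A4, 10.6-fold lower in OS-LM1 than in 786-M1A cells (log2 fold change -3.41 ± 0.19 SE, edgeR adjusted p = 1.1e-14). In total 3 genes were higher in OS-LM1 cells and 2 were lower, while 32.0% of all genes were higher and 31.0% lower. S100A2, S100A10 and S100A13 were higher by 0.47 ± 0.13, 0.44 ± 0.13 and 0.42 ± 0.16 SE on the log2 scale, and S100A6 was lower by -0.48 ± 0.15 SE (edgeR adjusted p = 0.0036, 0.0045, 0.021 and 0.0059). The libraries of the lines did not overlap for these 4 genes. With the GC trend removed the calls of S100A10 (0.27) and S100A6 (-0.18) ended, and that of S100A13 ended without any of 3 single libraries (lowest 0.36, without OS-LM1 library 3).

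With shPAX8, which again needs no sgNTC18 library, 6 of the 8 S100 genes were higher in OS-LM1 than in 786-M1A cells and none was lower, beside 41.7% and 41.5% of all genes. S100A3 was 7.89-fold higher (log2 fold change 2.98 ± 0.41 SE, edgeR adjusted p = 1.3e-08), with at most 0.706 CPM in 786-M1A and at least 1.26 CPM in OS-LM1 libraries. The 786-M1A side of this fold rested on 2 to 15 counts per library with shPAX8-1 and 0 to 4 with shPAX8-2. S100A2 was 2.38-fold, S100A10 2.09-fold, S100A13 1.96-fold, S100A16 1.81-fold and S100A11 1.35-fold higher. The libraries of the lines did not overlap for S100A3, S100A10, S100A13 and S100A16, and the share of all genes without overlap was not computed. S100A4, so far apart with sgNTC18, was at 3.04 ± 0.0953 CPM (shPAX8-1) and 2.62 ± 0.549 CPM (shPAX8-2) in 786-M1A cells and at 3.55 ± 0.810 and 2.43 ± 0.556 CPM in OS-LM1 cells. Its difference of 0.06 ± 0.13 SE was not called (edgeR adjusted p = 0.67). S100A6 was not called either (-0.06 ± 0.10 SE), but it was higher in OS-LM1 cells with shPAX8-1 alone (0.47 ± 0.15 SE, edgeR adjusted p = 0.0054) and lower with shPAX8-2 alone (-0.58 ± 0.15 SE, edgeR adjusted p = 0.00082).

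**Figure D4:**
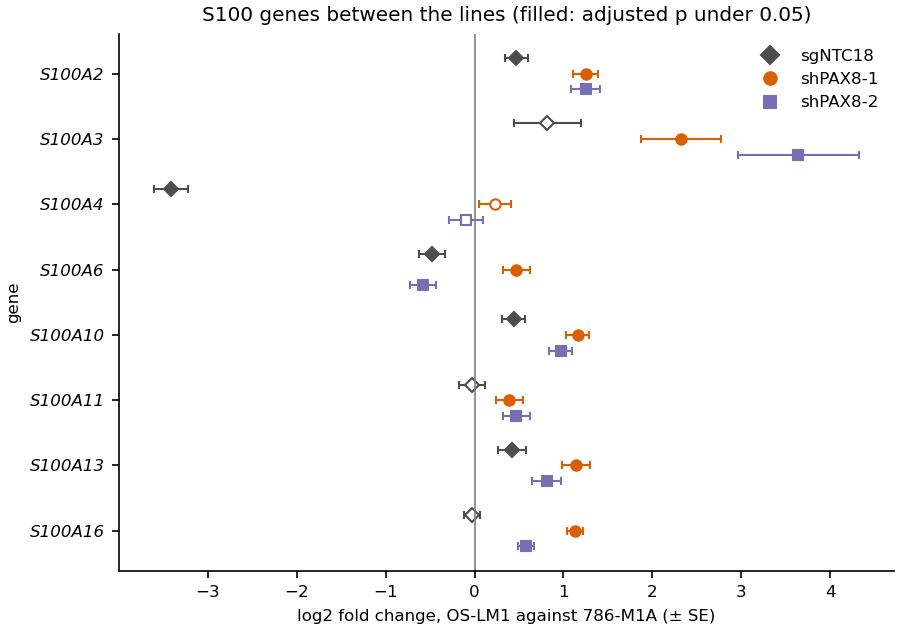
Log2 fold change of each tested S100 gene in OS-LM1 against 786-M1A cells (points, SE as bars) with sgNTC18, shPAX8-1 or shPAX8-2; filled points are called by edgeR at an adjusted p under 0.05. S100A4 lies at -3.41 with sgNTC18 and near 0 with both shPAX8 constructs, and S100A6 lies on opposite sides of 0 with the 2 constructs.

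Binding partners and receptors of S100 proteins were followed as a list of 20 genes, of which 18 were tested. In 786-M1A cells 9 were higher and 6 lower with shPAX8, and in OS-LM1 cells 10 were higher and 4 lower. Over all genes 34.5% were higher and 34.9% lower in 786-M1A cells, and 34.2% and 35.1% in OS-LM1 cells, so that the count of lower partners in 786-M1A cells was near that of all genes. ANXA2, the annexin that holds S100A10 at the membrane, was between 1271 and 1504 CPM with sgNTC18 in 786-M1A cells and between 951 and 1323 CPM under shPAX8 (log2 fold change -0.27 ± 0.09 SE, edgeR adjusted p = 0.011), and with shPAX8-1 alone it was not called (-0.19, edgeR adjusted p = 0.11). In OS-LM1 cells ANXA2 rose from between 2493 and 2948 CPM to between 4197 and 5562 CPM (log2 fold change 0.84 ± 0.09 SE, edgeR adjusted p = 1.2e-08), beside the rise of S100A10. Over the deviations of log2 CPM from the group means in the 24 libraries, S100A10 correlated at 0.78 with ANXA2 and at 0.78 with ANXA1. These values share libraries and their scaling and are given as a description.

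**Figure D5:**
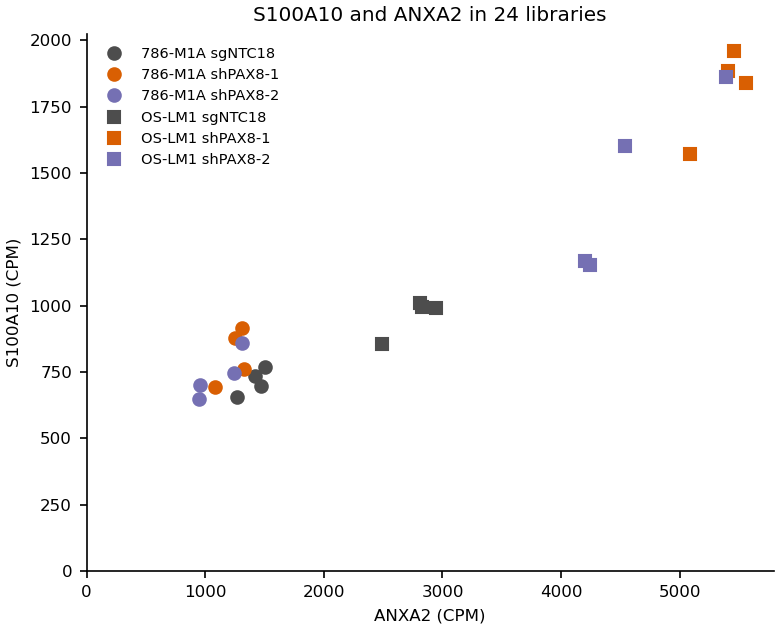
CPM of S100A10 against CPM of ANXA2 in the 24 libraries, by line (circles, 786-M1A; squares, OS-LM1) and construct (colour). The 8 OS-LM1 libraries with shPAX8 lie at the upper right, at 4197 CPM of ANXA2 or more, and the 786-M1A libraries lie together at 1504 CPM or less.

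ANXA1, a partner of S100A11, was higher with shPAX8 in both lines, by 0.73 ± 0.12 SE in 786-M1A and 1.57 ± 0.12 SE in OS-LM1 cells on the log2 scale (edgeR adjusted p = 8.5e-06 and 3.3e-11), whereas S100A11 was lower in 786-M1A cells and not called in OS-LM1 cells. MYH9, the myosin partner of S100A4, was lower in both lines (-1.24 ± 0.10 and -0.51 ± 0.10 SE, edgeR adjusted p = 1.6e-11 and 6.1e-05). CACYBP, which binds S100A6, was lower in OS-LM1 cells (-0.92 ± 0.14 SE, edgeR adjusted p = 1.4e-06) and not called in 786-M1A cells (0.07 ± 0.14 SE), where it was higher with shPAX8-1 alone (0.57 ± 0.16 SE, edgeR adjusted p = 0.0032) and lower with shPAX8-2 alone (-0.44 ± 0.16 SE, edgeR adjusted p = 0.023). AHNAK, which binds the complex of S100A10 and ANXA2, was not called in 786-M1A cells (0.11 ± 0.09 SE, edgeR adjusted p = 0.26), although it was higher with shPAX8-2 alone (0.32, edgeR adjusted p = 0.0084), and it was lower in OS-LM1 cells (-0.43 ± 0.09 SE, edgeR adjusted p = 8.9e-05). EZR, the ezrin gene, was lower in 786-M1A cells (-1.47 ± 0.09 SE, edgeR adjusted p = 4.8e-14) and not called in OS-LM1 cells (0.01 ± 0.09 SE), where it was lower with shPAX8-1 alone (-0.25, edgeR adjusted p = 0.038) and higher with shPAX8-2 alone (0.27, edgeR adjusted p = 0.028).

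FGF1 and IL1A, both released with the help of S100A13, were also followed. IL1A was higher in both lines (2.22 ± 0.63 and 4.73 ± 0.28 SE, edgeR adjusted p = 0.0011 and 5.9e-14). The OS-LM1 libraries with sgNTC18 held 67 counts of IL1A in all. In 786-M1A cells the call of IL1A came from shPAX8-1 (3.60 ± 0.61 SE, edgeR adjusted p = 2.6e-07, 98 counts against 10 with sgNTC18). With shPAX8-2 alone, at 12 counts, IL1A was not called (0.84 ± 0.76 SE, edgeR adjusted p = 0.33). FGF1 was called in 786-M1A cells only (2.56 ± 0.70 SE, edgeR adjusted p = 0.00042) on 6 counts with sgNTC18. AGER, the receptor of extracellular S100 proteins, was higher in 786-M1A cells (0.69 ± 0.25 SE, edgeR adjusted p = 0.020), a call that ended with shPAX8-1 alone (0.38, edgeR adjusted p = 0.25), but fell in OS-LM1 cells (-1.16 ± 0.29 SE, edgeR adjusted p = 0.00088). TLR4, the receptor of S100A8 and S100A9, was 16.2-fold higher in OS-LM1 cells (4.02 ± 0.33 SE, edgeR adjusted p = 2.8e-11). This fold was taken from 0.35 ± 0.228 CPM with sgNTC18, on 5 to 22 counts per library. In 786-M1A cells TLR4 was not called (-0.52 ± 0.32 SE, edgeR adjusted p = 0.14), although with shPAX8-1 alone it was lower (-1.33 ± 0.41 SE, edgeR adjusted p = 0.0042).

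Among themselves the S100 genes varied unevenly within groups. Over deviations from the group means in the 24 libraries, S100A6 correlated with S100A11 at 0.70 and with S100A16 at 0.64, and S100A10 with S100A13 at 0.62, whereas S100A4 correlated with no other member above 0.34. With PAX8 the members correlated both ways on the same scale, at 0.65 (S100A6), 0.59 (S100A2), 0.56 (S100A16), 0.35 (S100A11), 0.19 (S100A4), 0.04 (S100A3), -0.36 (S100A13) and -0.52 (S100A10). All these deviations include the split of the 786-M1A shPAX8-1 libraries 1 and 2 from libraries 3 and 4. Its part in the correlations was not tested. The group means of log2 CPM spanned 3.67 for S100A3, 3.29 for S100A4 and 2.32 for S100A2, and 0.69 for S100A11, the least of the 8. The low end for S100A3 was 786-M1A cells with shPAX8-2, at 0 to 4 counts per library, where the prior count weighs on the value.

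Over the 24 libraries and 9358 genes compared, the log2 CPM pattern most like that of S100A4 was that of SP100 (Pearson's r = 0.912), followed by SP110 (0.896). For S100A3 the nearest were YWHAB (0.919), RPS26 (0.913) and HGD (0.909). For S100A2 they were PSMB3 (0.949), UCA1 (0.944) and DUSP12 (0.938). These genes share their libraries with the S100 genes, and the values describe likeness alone.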

How the data were processed

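PolyA RNA of 786-M1A and OS-LM1 cells was sequenced, 4 replicates per construct and line (KAPA stranded mRNA kit per the labels, Lexogen kits in the study's methods). The authors aligned reads to hg38 with Bowtie2 and RSEM (versions and strand setting not given in the sources used here) and deposited expected counts for 26475 genes per library, with TPM, which the authors scaled by transcript length and library. Groups were taken from the titles.

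The expected counts were rounded for use in R 4.3.3. Low genes were removed by filterByExpr (minimum count 10) of edgeR 4.0.16, which left 15665. Libraries were scaled by TMM, and 1 model of the 6 group means was tested by robust quasi-likelihood with Benjamini-Hochberg adjustment over all genes tested, called at an adjusted p under 0.05. CPM was scaled by TMM, and its log2 form had a prior count of 2. TPM was used as deposited. Medians of fold changes, correlations and likeness are descriptions. Totals of 11634419 to 52059375 per library set the counting error.

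The 10 genes were followed by symbol, with other S100 genes, partners and cell markers as lists. The 3 members with the widest range of group means each had their 3 most similar genes named, of which 1 for S100A4 is not reported here. Members and lists were chosen with earlier results of these data known. The alternatives were DESeq2 1.42.0, its size factors, no filter, only the compared groups, single libraries left out, the replicate number as a block, stricter thresholds, a GC trend removed by a spline and either construct alone. GC with length, and pairs of 786-M1A libraries left out, were added after seeing the data. No 2 replicates agreed within sampling noise (chi-square per gene at least 3.58). The procedure was tested on simulated data.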

Additional observations from a re-analysis of the deposited data

Results flagged for a closer look

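Among 48 groups of 4 libraries, 8 genes in 6 groups, 2 held a library far from the other 3. Chance gives such a library in about 1 of 20 groups. S100A10 in OS-LM1 cells with sgNTC18 was at 855 CPM in library 2 and between 991 and 1011 CPM in the others, a gap of 0.87 of the range. S100A13 in 786-M1A cells with shPAX8-2 was at 63.3 CPM in library 4 and between 51.7 and 53.0 CPM in the others, a gap of 0.89 of the range.

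The change with shPAX8 against sgNTC18 differed between the lines by edgeR's test of the difference (OS-LM1 minus 786-M1A, log2 scale) for S100A4 (3.47), S100A3 (2.16), S100A16 (0.88), S100A2 (0.78), S100A10 (0.63), S100A13 (0.55), S100A11 (0.46) and S100A6 (0.42). The difference between the constructs was unequal between the lines for S100A6 (1.05) and S100A16 (0.54).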

How the results depend on the processing

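The counts of S100 genes called with shPAX8 against sgNTC18 (7 in 786-M1A, 4 in OS-LM1 cells), between the constructs in OS-LM1 cells (3) and between the lines with shPAX8 (6) stayed within 1.5 times under every alternative run. With 1 library left out they ranged from 7 to 7, 4 to 5, 2 to 4 and 6 to 6. The count between the constructs in 786-M1A cells (4) was 1 at an adjusted p under 0.01, 2 at an absolute log2 fold change over 0.58, 2 with GC and length trends removed, 2 with only the compared groups fitted and 1 without the shPAX8-1 libraries 3 and 4. It ranged from 1 to 4 with single libraries left out. The count between the lines with sgNTC18 (5) was 1 over 0.58 and 4 to 6 with single libraries left out. Over all genes that count was 9874, and 7252 over 0.58. The 8 differences of the shPAX8 effect between the lines became 5 at an adjusted p under 0.01, over 0.58 or with shPAX8-2 alone, and 6 to 8 with single libraries left out. Over all genes 9203 such differences were called, then 7360 at an adjusted p under 0.01, 7461 over 0.58 and 8326 with shPAX8-2 alone. The 2 unequal construct differences became 1 over 0.58 and with the GC trend removed, with or without the block, or GC and length trends removed, and 2 to 3 with single libraries left out. Over all genes the count between the constructs in 786-M1A cells was 7536. It was 5422 at an adjusted p under 0.01, 4536 over 0.58 and 7038 with GC and length trends removed. It was 5772 with only the compared groups fitted and 3890 without the shPAX8-1 libraries 3 and 4. In OS-LM1 cells that count was 3625, 2200 at an adjusted p under 0.01 and 1895 over 0.58. The count of unequal construct differences over all genes was 4264, 2449 at an adjusted p under 0.01 and 3383 over 0.58. It was 4860 with the GC trend removed, 4771 with the block too and 5134 with GC and length trends removed. Without the 786-M1A shPAX8-1 libraries 3 and 4 it was 2579, and without libraries 1 and 2 it was 6817.

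Signs that turned belonged to values not called in the main test, apart from S100A6 and S100A16 between the constructs in 786-M1A cells and S100A6 in the difference between the lines. In that difference S100A6 had -0.11 with shPAX8-2 alone. Between the constructs in 786-M1A cells, S100A6 had 0.03 and S100A16 0.10 with the GC trend removed (0.04 and 0.10 with the block too). S100A11 there had 0.20 (0.21 with the block too), 0.07 with GC and length, 0.01 with no filter and 0.08 without libraries 3 and 4, and S100A10 had 0.00 with GC and length and -0.01 without those libraries. With shPAX8 in OS-LM1 cells, S100A16 had -0.05 with shPAX8-2 alone and S100A13 0.00 with the GC trend and 0.03 with GC and length removed. For OS-LM1 against 786-M1A with sgNTC18, S100A16 had 0.17 with the GC trend removed, 0.16 with the block too and 0.10 with GC and length. With shPAX8, S100A4 had -0.10 with shPAX8-2 alone. S100A6 there had 0.47 with shPAX8-1 alone, and this turned value was itself called (edgeR adjusted p = 0.0054). S100A6 had 0.34 with the GC trend removed (also with the block), 0.20 with GC and length and 0.06 without the 786-M1A shPAX8-1 libraries 1 and 2. For the unequal construct differences, S100A2 had 0.00 with DESeq2's size factors, 0.01 with only the compared groups and 0.25 without those libraries, and S100A11 had 0.01 without them. The cause of these changes was not tested. With single libraries left out, values that turned ranged from -0.09 to 0.00 (S100A11) and -0.07 to 0.05 (S100A16) between the lines with sgNTC18, from -0.13 to 0.00 (S100A6) and -0.01 to 0.12 (S100A4) between them with shPAX8, from 0.00 to 0.11 (S100A16) with shPAX8 in OS-LM1 cells, and from -0.05 to 0.05 in 786-M1A and -0.22 to 0.07 in OS-LM1 cells between the constructs (S100A11). They ranged from -0.10 to 0.11 (S100A2) and -0.22 to 0.07 (S100A11) for unequal construct differences. In OS-LM1 cells S100A11 was called lower with shPAX8 without shPAX8-1 library 1 or 4 (-0.29 each), and S100A13 without sgNTC18 library 2 (-0.35), shPAX8-2 library 4 (-0.38) or shPAX8-1 library 2 (-0.32).

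Same-numbered libraries of a line correlated at 0.003 on average over 24 pairs (6 over 0.1, lowest -0.319) and other pairs at -0.001, so the numbers were not taken as pairs. With the replicate number as a block the counts were 7 and 4 with shPAX8 in 786-M1A and OS-LM1 cells, 4 and 4 between the constructs, 6 and 6 between the lines and 8 and 2 for the differences. Over all genes the block gave 10790 and 10762, 7356 and 3368, 9799 and 12969, and 9047 and 4009 in the same order. S100A10 between the constructs in OS-LM1 cells (0.34) and S100A3 between the lines with sgNTC18 (0.89) were then called, S100A11 between the constructs in 786-M1A cells had 0.00, and S100A2 had 0.01 among the unequal construct differences. S100A3, with 0 to 15 counts in 786-M1A shPAX8 libraries, is limited by depth.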

Other observations

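S100A1, known from heart muscle, was the only tested gene of the 10 further S100 genes. It was between 0.534 and 0.608 CPM in 786-M1A cells with sgNTC18, between 0.0523 and 0.188 CPM with shPAX8-1 and between 0.324 and 0.569 CPM with shPAX8-2, with at most 17 counts in any of these libraries. Its log2 difference under shPAX8 was -1.19 ± 0.45 SE (edgeR adjusted p = 0.018) in 786-M1A cells, where S100A13, which it overlaps, was also lower. The difference was -2.04 ± 0.62 SE with shPAX8-1 alone (edgeR adjusted p = 0.0025) and not called with shPAX8-2 alone (-0.34 ± 0.49 SE, edgeR adjusted p = 0.56). In OS-LM1 cells it was 0.10 ± 0.48 SE (edgeR adjusted p = 0.87), with 1 library of shPAX8-1 at 0.797 CPM and the other OS-LM1 libraries at 0.254 CPM or less.

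CA9, the hypoxia target named among the ccRCC markers, was at 6.40 ± 0.421 CPM in OS-LM1 cells with sgNTC18, at 42.2 ± 4.07 CPM with shPAX8-1 and at 29.5 ± 4.47 CPM with shPAX8-2. NDUFA4L2 was at 0.564 ± 0.194, 23.7 ± 5.33 and 26.5 ± 4.80 CPM in the same order. These rises stand beside those of S100A4 and S100A10 in the same libraries, and their relation was not tested.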
